A study of Mus musculus with 6 samples.

Results

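The miR-99/100 and miR-125 families were followed in mouse embryonic fibroblasts without Fbxw7. The rows were taken by name from the deposited count table, namely Mir99a, Mir99b, Mir100, Mir125a, Mir125b-1 and Mir125b-2. All 6 were found among 1155 rows, and all 6 were among the 283 rows with enough counts to be tested. Small RNA was sequenced from 3 Fbxw7 KO and 3 WT libraries of these cells, which are connective tissue cells grown from embryos in DMEM with serum. FBXW7 is the substrate receptor of an SCF ubiquitin ligase whose substrates include Myc, cyclin E, Jun and Notch. The labels give no strain, embryo age, knockout method or Cre driver, and they leave unsaid whether each library stands for its own embryo or culture. The p-values below therefore measure the spread among these 6 libraries, which may be technical.

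A miRNA is cut from a hairpin precursor, whose arms give the 5p and the 3p strand, and it recognises target mRNAs mainly through its seed, bases 2 to 8. The miR-125 family is the vertebrate relative of lin-4, the Caenorhabditis elegans miRNA that times larval development, and it is known to repress Lin28 and, for miR-125b, p53. The miR-99/100 family is known to repress the kinase mTOR and the IGF1 receptor. In mammals both families are encoded beside let-7 hairpins, and let-7 is the other classic timing miRNA, known to repress Lin28, Ras and Hmga2.

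The mature sequences below come from RefSeq (GRCm38.p6, the build also called mm10), where both arms of all 6 members were matched. They are shown because the members fall into 2 seed groups and because some can hardly be told apart in short reads. Capitals mark the seed. The first group is miR-99/100, with the similar miR-10a and miR-10b, whose seed is another.
miR-99a-5p: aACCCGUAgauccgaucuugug
miR-99b-5p: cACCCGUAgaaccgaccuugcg
miR-100-5p: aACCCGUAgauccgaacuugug
miR-10a-5p: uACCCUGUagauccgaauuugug
miR-10b-5p: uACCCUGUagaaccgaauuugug
The second group is miR-125, with the X-linked miR-351 as a seed relative.
miR-125a-5p: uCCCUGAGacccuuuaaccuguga
miR-125b-5p: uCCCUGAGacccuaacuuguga
miR-351-5p: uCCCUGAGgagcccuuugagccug
The 3p strands of the Mir125b hairpins, which differ from each other, are the following.
miR-125b-1-3p: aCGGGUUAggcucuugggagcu
miR-125b-2-3p: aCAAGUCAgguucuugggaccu

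The miR-99/100 seed was carried by 3 of the 1738 mature entries of that table, all of them members. miR-100-5p and miR-99a-5p differ by 1 base outside the seed, written A16U with miR-100 first and positions counted from the 5p strand's first base. miR-100-5p and miR-99b-5p differ by 4 bases (A1C, U11A, A16C and U21C). miR-10a-5p and miR-10b-5p hold another seed, and miR-10a-5p matched miR-100-5p at 20 of 23 aligned positions. The miR-125 seed was shared by 6 genes, the 3 members, Mir351, and Mir6367 and Mir6394, which are listed at 0 in every library.

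Mir125b-1 and Mir125b-2 encode the same 5p strand, and their 3p strands differ at 5 of 22 positions. The recorded counting command does not switch on reads with several alignments, which the program leaves out by default. Reads of the shared 5p strand that end within it can therefore be missing from both rows, and the arm behind the counts of these rows was not analysed here. Counts of Mir125b-1 and Mir125b-2 are thus uncertain as a measure of miR-125b itself. Reads of both arms fall into 1 row. The same limit holds for Mirlet7c-1, whose 5p strand is identical to that of Mirlet7c-2, and for Mirlet7a-2, whose hairpin holds the whole let-7a-5p sequence listed under Mirlet7a-1. How many mismatches the alignment allowed is not given in the sources used here, which matters for Mir99a and Mir100.

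The members lie in 3 loci, each holding a miR-99/100 hairpin, a let-7 hairpin and a miR-125 hairpin in that order on the plus strand. On chromosome 16, Mir99a (77598936 to 77599000) and Mir125b-2 (77646273 to 77646343) flank Mirlet7c-1 over 47.4 kb, within introns of the noncoding gene Mir99ahg. On chromosome 9, Mir100 (41531425 to 41531504) and Mir125b-1 (41581926 to 41582002) flank Mirlet7a-2 over 50.6 kb, within introns of 3110039I08Rik, a RefSeq synonym of Mir100hg. On chromosome 17, Mir99b (17830188 to 17830257) and Mir125a (17830812 to 17830879) flank Mirlet7e over only 692 bases, in an intron and an exon of Spaca6, a protein-coding gene. Coordinates (mm10) were read from the count table, and all 6 equal the GENCODE M21 entries of the same name. Mir100 also lies in an exon of the antisense lincRNA Gm48742, and Mirlet7e opposite the predicted miRNA Gm25927, which a count without strand cannot tell apart. On the same strand, Mir125b-1 lies in an exon of Gm28119 and Mir125b-2 in an exon of C130023A14Rik. No other row of the count table overlaps a member. The Mir99ahg row had 1 count over the Fbxw7 KO libraries and 1 over the WT libraries.

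The Fbxw7 KO libraries held 2932439 to 3753353 counts and the WT libraries 3707576 to 5019700. Fbxw7 KO replicate 3 stood apart from the other KO libraries on the second principal component of log2 CPM, which held 16.8% of the variance (score 6.65, against -2.90 and -3.59), while WT replicate 3 scored highest among WT libraries (2.38). Results of the members are therefore also given without Fbxw7 KO replicate 3 where it changes a call. Fibroblast and mesenchymal miRNAs such as Mir21a and Mir143 held 49.95% to 53.4% of counts in Fbxw7 KO and 47.0% to 47.6% in WT (8 of 10 listed miRNAs in the table, 1 of them, Mir22, at 0). Most of these counts came from Mir21a (2717087 over the Fbxw7 KO libraries, 3209598 over WT) and Mir143 (2225243 and 2928437). Mir199a-1, also listed, had only 14 and 18. Muscle miRNAs reached at most 0.0405% in Fbxw7 KO and 0.0227% in WT, with 4 of 5 rows at 0, among them the defining Mir1a-1, Mir1a-2, Mir133a-1 and Mir133a-2. Epithelial, blood, neuronal, liver and pluripotent lists each stayed at or under 0.00618% of counts in every library, and both endothelial rows were at 0. The part of other cell types in the results below was not tested, and in bulk libraries a change in the number of cells of a type and in RNA per cell cannot be told apart.

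The 6 members together held 5.27% ± 0.474 of counts in Fbxw7 KO and 5.72% ± 0.563 in WT (SD, n = 3 each), and the genotypes overlapped. The difference in this share was -0.45 percentage points (exact two-sided permutation test, p = 0.3; 3 against 3 libraries cannot give less than 0.1). Leaving out WT replicate 3 gave -0.16 and leaving out Fbxw7 KO replicate 2 gave -0.30, while leaving out either WT replicate 1 or Fbxw7 KO replicate 3 gave -0.72. The miR-99/100 rows held 4.43% ± 0.389 in Fbxw7 KO and 4.94% ± 0.452 in WT. The miR-125 rows held 0.844% ± 0.0846 in Fbxw7 KO and 0.782% ± 0.129 in WT.

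Levels between hairpins are compared here in FPKM, the deposited values per length of hairpin. Mir100 was the most abundant member, with 287911 ± 46363 FPKM in Fbxw7 KO and 371930 ± 29411 in WT (the tenth most abundant of all tested miRNAs by CPM). Mir99b followed with 213053 ± 3647 FPKM in Fbxw7 KO and 225068 ± 14736 in WT, and Mir99a came next with 91008 ± 7642 FPKM in Fbxw7 KO and 65882 ± 9049 in WT. In Fbxw7 KO these 3 were separate from each other and from the miR-125 rows, with no shared values. In WT, Mir99a overlapped the levels of Mir125a (54779 ± 2272 FPKM), so that its place in the order was clear in Fbxw7 KO only. Mir125a (53628 ± 2186 FPKM in Fbxw7 KO) and Mir125b-1 (57160 ± 7245 in Fbxw7 KO, 50067 ± 13418 in WT) overlapped in both genotypes in FPKM. In CPM, which are not divided by hairpin length, they overlapped in WT only. There Mir125b-1 had 4041 to 4960 CPM in Fbxw7 KO, above Mir125a with 3502 to 3759, so their order depends on the measure. Mir125b-2 was far below, at 4285 ± 444 FPKM in Fbxw7 KO and 3944 ± 790 in WT, with the reservation about the shared 5p strand.

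**Figure D1:**
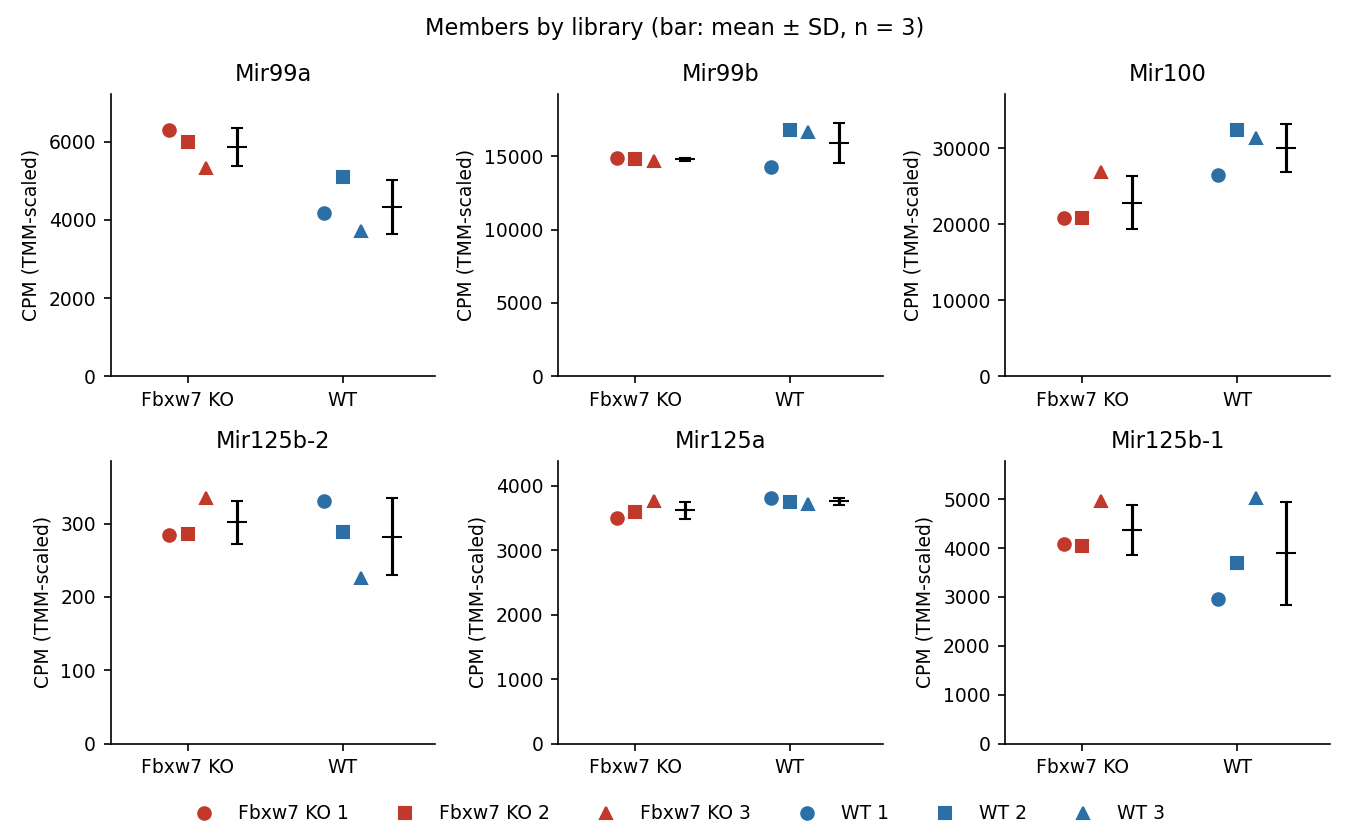
CPM of each member (y axis, counts scaled to a common library size with TMM factors, starting at 0) in the 3 Fbxw7 KO libraries (left, red) and the 3 WT libraries (right, blue); marker shapes give the replicate and bars the mean ± SD. Mir99a is the only member whose genotypes do not overlap, and Fbxw7 KO replicate 3 lies nearest to WT for Mir99a and Mir100.

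In the miR-99/100 family, Mir99a was higher in every Fbxw7 KO library and Mir100 lower in most, while Mir99b hardly differed, and none of the 3 passed the test. CPM here are counts scaled to a common library size with edgeR's TMM factors. Mir99a had 6290.4, 5987 and 5329 CPM in Fbxw7 KO replicates 1 to 3, against 4165, 5097 and 3721 in WT replicates 1 to 3. All KO libraries lay above all WT libraries, the closest being Fbxw7 KO replicate 3 and WT replicate 2. Its means were 5869 ± 492 CPM in Fbxw7 KO and 4328 ± 702 in WT, a log2 fold change of 0.44 (SE 0.152, 95% interval 0.10 to 0.78, edgeR quasi-likelihood adjusted p = 0.0692). Mir100 had 20789, 20834 and 26877 CPM in Fbxw7 KO replicates 1 to 3, against 26482, 32366 and 31307 in WT. Replicate 3 was the highest KO library and lay just above WT replicate 1, so the genotypes overlapped. Means were 22833 ± 3502 CPM in Fbxw7 KO and 30052 ± 3136 in WT, a log2 fold change of -0.40 (SE 0.149, 95% interval -0.73 to -0.06, edgeR adjusted p = 0.0850). Without Fbxw7 KO replicate 3, both passed the same test, Mir99a as higher (log2 fold change 0.52, adjusted p = 0.0238) and Mir100 as lower (-0.52, adjusted p = 0.0108), which leaves 2 KO libraries. Over 16 alternative settings the adjusted p ran from 0.0215 to 0.203 for Mir99a and from 0.0108 to 0.265 for Mir100.

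Mir99b was the steadiest member in Fbxw7 KO, with 14880.3, 14797 and 14706 CPM, an SD of 0.590% of the mean. WT had 14301, 16768 and 16646 CPM, and WT replicate 1 lay below all KO libraries. Means were 14794 ± 87.3 CPM in Fbxw7 KO and 15905 ± 1390.2 in WT, a log2 fold change of -0.10 (SE 0.123, 95% interval -0.38 to 0.17, edgeR adjusted p = 0.570), which ran from -0.18 without WT replicate 1 to -0.05 without WT replicate 2.

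In the miR-125 family no member passed the test and the genotypes overlapped for all 3. Mir125a had 3502, 3592 and 3759 CPM in Fbxw7 KO, against 3809, 3739 and 3715 in WT. Fbxw7 KO replicate 3 lay among the WT libraries and the other KO libraries below them. The log2 fold change was -0.05 (SE 0.114, 95% interval -0.31 to 0.20, edgeR adjusted p = 0.759), the narrowest interval among the members. Mir125b-1 had 4089.7, 4041 and 4959.6 CPM in Fbxw7 KO, against 2952, 3696 and 5025 in WT. The third library was the highest of each genotype, and the WT libraries spread more, with an SD of 11.8% of the mean in Fbxw7 KO and 27.0% in WT. The log2 fold change was 0.17 (SE 0.198, 95% interval -0.28 to 0.61, edgeR adjusted p = 0.577). With WT replicate 1 left out it was 0.0010, with WT replicate 3 left out 0.38, and 0.07 when Fbxw7 KO replicate 3 was dropped. TMM factors from outside the Dlk1-Dio3 region, an imprinted miRNA cluster, gave 0.03.

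Mir125b-2 was the lowest member. Its libraries had 284, 286 and 335 CPM in Fbxw7 KO and 331, 289 and 226 in WT. Fbxw7 KO replicate 3 was the highest library and WT replicate 3 the lowest. The log2 fold change was 0.10 (SE 0.171, 95% interval -0.29 to 0.48, edgeR adjusted p = 0.722), and it was -0.030 with TMM factors from rows outside the Dlk1-Dio3 region and -0.051 without WT replicate 3, so no direction can be given. The lowest count of this row was 841, where the Poisson SD is 3.45% of the count. The other members had at least 10572 counts in every library, and the Poisson SD at the lowest count of Mir99b, 0.479%, was close to its spread of 0.590% between Fbxw7 KO libraries. These values cover counting error only, since PCR reads are not independent molecules.

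**Figure D2:**
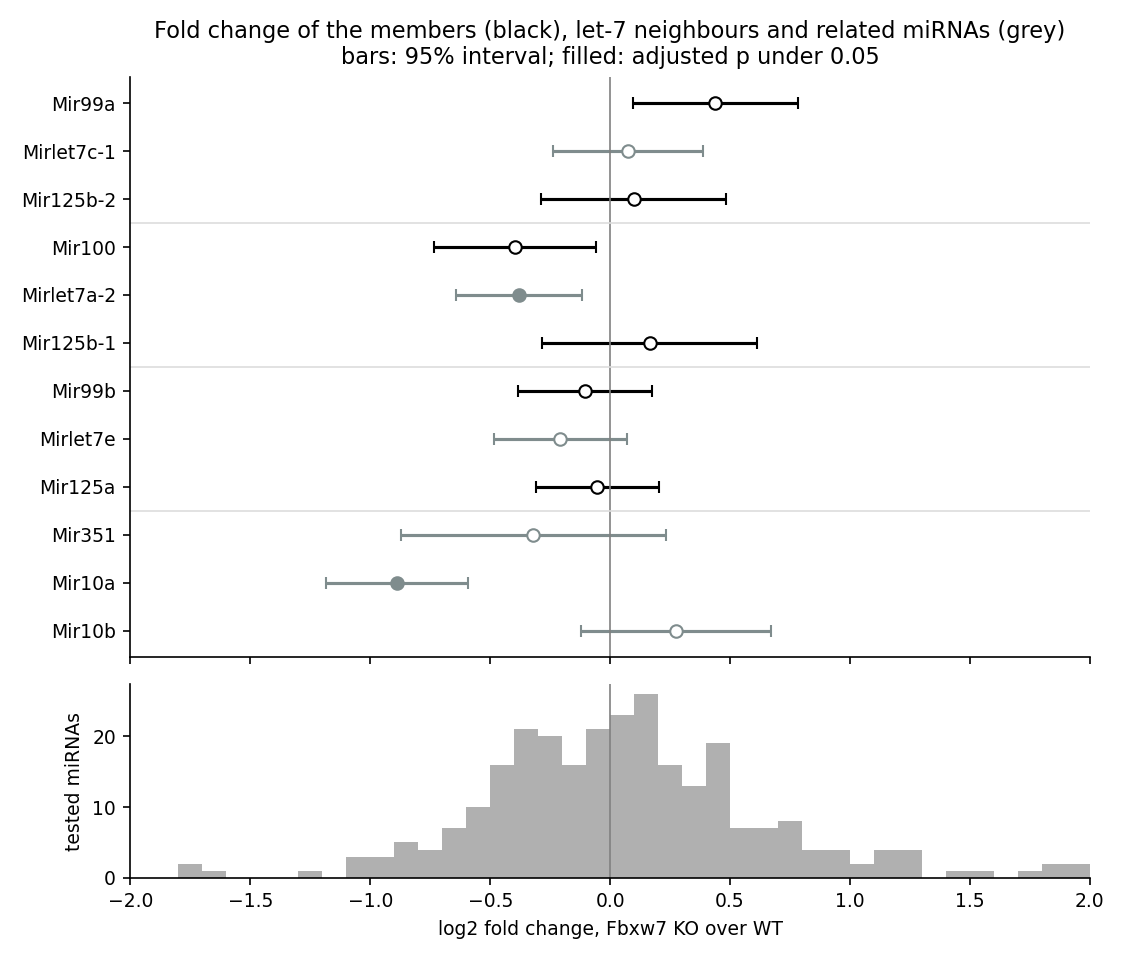
Upper panel: log2 fold change, Fbxw7 KO over WT (x axis), of the members (black) and of the let-7 neighbours and related miRNAs (grey), grouped by locus, with 95% intervals; filled points passed the edgeR test. Lower panel: number of tested miRNAs (y axis) at each log2 fold change, with the 9 of 283 beyond 2 in size not shown; the members run from -0.40 to 0.44.

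Of the 6 members, 0 passed the edgeR test at an adjusted p of 0.05 and 2 (Mir99a and Mir100) had an unadjusted p under it, and the counts by the DESeq2 Wald test and by limma on FPKM were also 0. Among all 283 tested miRNAs 25.4% passed (15.2% higher and 10.2% lower in Fbxw7 KO), and 35.7% had an unadjusted p under 0.05. The genotypes did not overlap for 1 of 6 members, against 43.8% of all tested miRNAs. Members had 3 positive and 3 negative values with a median log2 fold change of 0.02, beside a median of 0.05 over all tested miRNAs, and the median size was 0.13 for members and 0.34 for all. The members' shares are thus at or below those of all miRNAs tested, and a p that misses the threshold does not show that levels were equal.

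Ratios between members within a library do not depend on scaling between libraries, and 7 were compared. The ratio of Mir99a to Mir100 counts was 0.303, 0.287 and 0.198 in Fbxw7 KO replicates 1 to 3, against 0.157, 0.157 and 0.119 in WT. Every KO library lay above every WT library, by 1.80-fold on average (log2 difference 0.85; means -1.95 ± 0.333 in Fbxw7 KO and -2.80 ± 0.234 in WT). The exact two-sided permutation p was 0.1, the smallest that 3 against 3 libraries can give, and 0.35 after Benjamini-Hochberg adjustment over the 7 ratios. This was the largest difference among the 7, and it ran from 0.71 to 1.04 when each library was left out in turn. The pair joins the members with the highest and the lowest log2 fold change (0.44 and -0.40), so the ratio largely repeats those values. How often ratios or shares of other miRNAs did not overlap was not counted, while 43.8% of all tested single miRNAs did not.

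In shares of the family, Mir99a made up 13.6% ± 1.95 of the miR-99/100 counts in Fbxw7 KO and 8.62% ± 1.23 in WT. Mir100 made up 52.3% ± 4.33 in Fbxw7 KO and 59.7% ± 0.835 in WT. Neither share overlapped between genotypes, whereas that of Mir99b did (34.1% ± 2.40 in Fbxw7 KO and 31.7% ± 0.663 in WT). The summed level of the miR-99/100 rows was 43497 ± 2963 CPM in Fbxw7 KO and 50284 ± 4794 in WT, with overlapping libraries. The summed miR-125 rows stood at 8283 ± 668 CPM in Fbxw7 KO and 7927 ± 953 in WT, also overlapping.

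**Figure D3:**
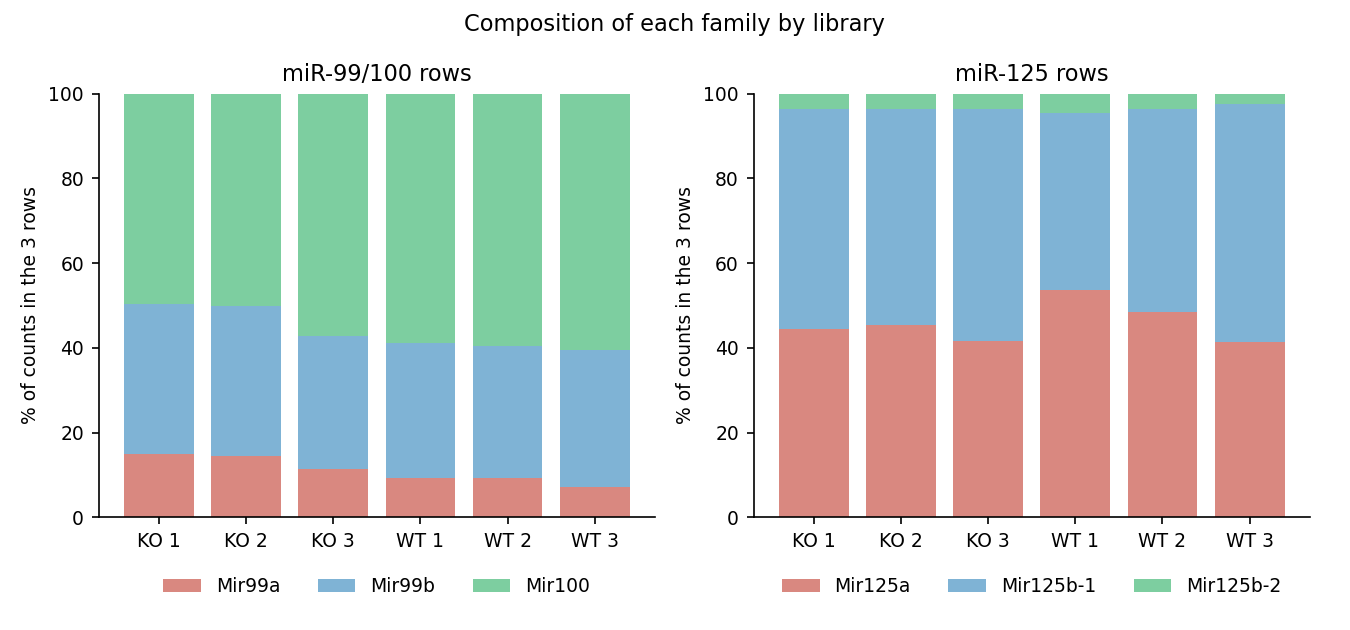
Share of each member (y axis, percent of the counts of its family's 3 rows, stacked) in each library, Fbxw7 KO left and WT right. The Mir99a share is 11.4% to 15.0% in Fbxw7 KO and 7.20% to 9.40% in WT, and the shares of the miR-125 rows vary more between WT libraries than between genotypes.

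The next ratios set the members of a locus side by side. On chromosome 9 there were 5.08, 5.15 and 5.42 Mir100 counts per Mir125b-1 count in Fbxw7 KO, against 8.97, 8.76 and 6.23 in WT. All KO libraries lay below all WT libraries, with a log2 difference of -0.59 (means 2.38 ± 0.0485 in Fbxw7 KO and 2.98 ± 0.294 in WT, exact permutation p = 0.1, adjusted 0.35), which ran from -0.76 to -0.50 as each library was left out and rests on the uncertain Mir125b-1 row. On chromosome 16 there were 22.1, 20.9 and 15.9 Mir99a counts per Mir125b-2 count in Fbxw7 KO, against 12.6, 17.7 and 16.4 in WT, which overlapped (log2 difference 0.34, exact permutation p = 0.3, adjusted 0.525; 0.19 without WT replicate 1). On chromosome 17 Mir99b stood to Mir125a at 4.25, 4.12 and 3.91 in Fbxw7 KO and at 3.75, 4.48 and 4.48 in WT (log2 difference -0.05, exact permutation p = 0.6, adjusted 0.70), and it ran from -0.13 (WT replicate 1 left out) to -0.0036 (WT replicate 2 left out).

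The remaining ratios overlapped between genotypes. Mir99b against the sum of Mir99a and Mir100 differed by 0.16 (log2, exact permutation p = 0.3; 0.25 without Fbxw7 KO replicate 3), and Mir125a against the sum of the Mir125b rows by -0.24 (exact permutation p = 0.5), which was -0.066 without WT replicate 1 and -0.42 without WT replicate 3. Mir125b-1 to Mir125b-2, the pair with the shared 5p strand, was nearly constant in Fbxw7 KO, at 14.4, 14.1 and 14.8. In WT it was 8.92, 12.8 and 22.2, so the WT libraries alone spanned the KO values on either side (log2 difference 0.08, exact permutation p = 0.7).

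**Figure D4:**
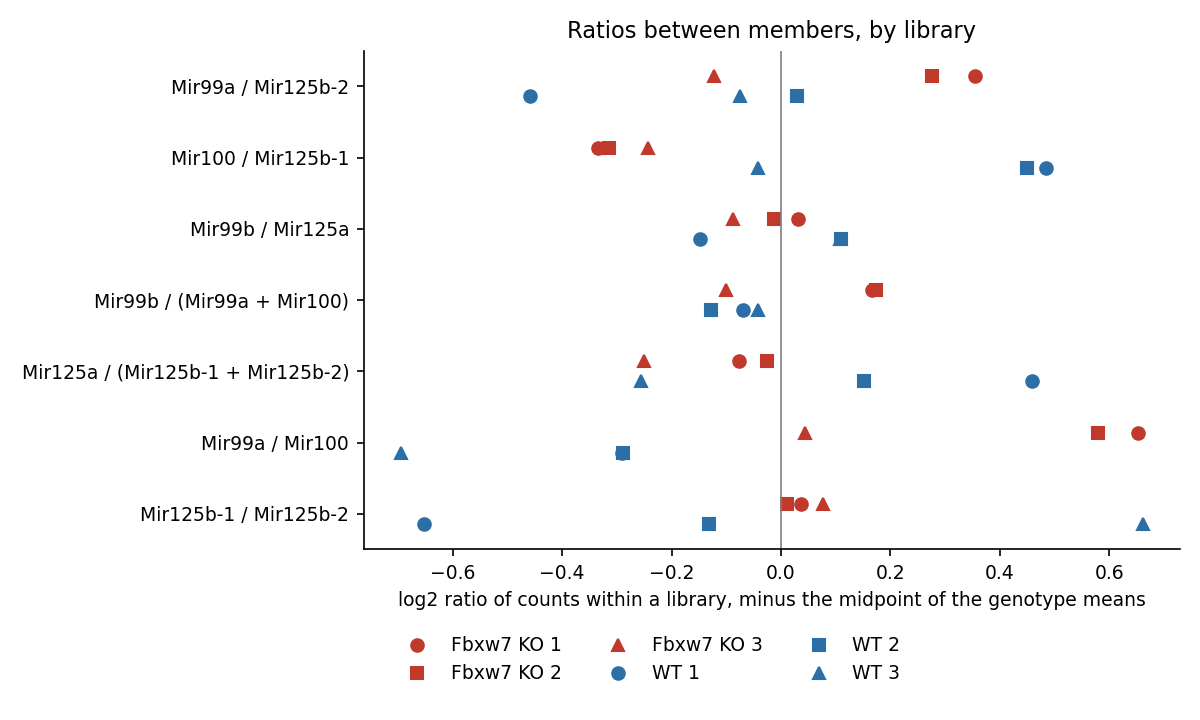
Log2 ratio of counts between members within each library (x axis, centred on the midpoint of the genotype means), with Fbxw7 KO (red) above WT (blue) in each row and marker shapes giving the replicate. The genotypes separate for Mir99a / Mir100 and Mir100 / Mir125b-1 and overlap in the other 5 rows. Ratios between other miRNAs were not counted for comparison.

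The let-7 hairpins beside the members gave 0 higher and 1 lower of 3 by the edgeR test, which called 25.4% of all tested miRNAs. Mirlet7a-2, next to Mir100, had 574, 617 and 661 CPM in Fbxw7 KO, against 840.1, 769 and 799 in WT. It fell by 0.38 on the log2 scale (SE 0.116, edgeR adjusted p = 0.0419), close to the value of Mir100, with the reservation about the shared let-7a-5p strand. It was called in 6 of 16 alternatives, with adjusted p from 0.0123 to 0.223, and its call ended, among others, without Fbxw7 KO replicate 1 or 2 and without WT replicate 1 or 2. Mirlet7e, between Mir99b and Mir125a, had a log2 fold change of -0.21 (edgeR adjusted p = 0.238). Its libraries did not overlap, at 3163 to 3691 CPM in Fbxw7 KO and 3739 to 4056 in WT, as for 43.8% of all tested miRNAs. Mirlet7c-1, next to Mir99a, had 0.08 (edgeR adjusted p = 0.722). Over 16 alternatives the log2 fold change of Mirlet7c-1 ran from -0.05 to 0.17.

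**Figure D5:**
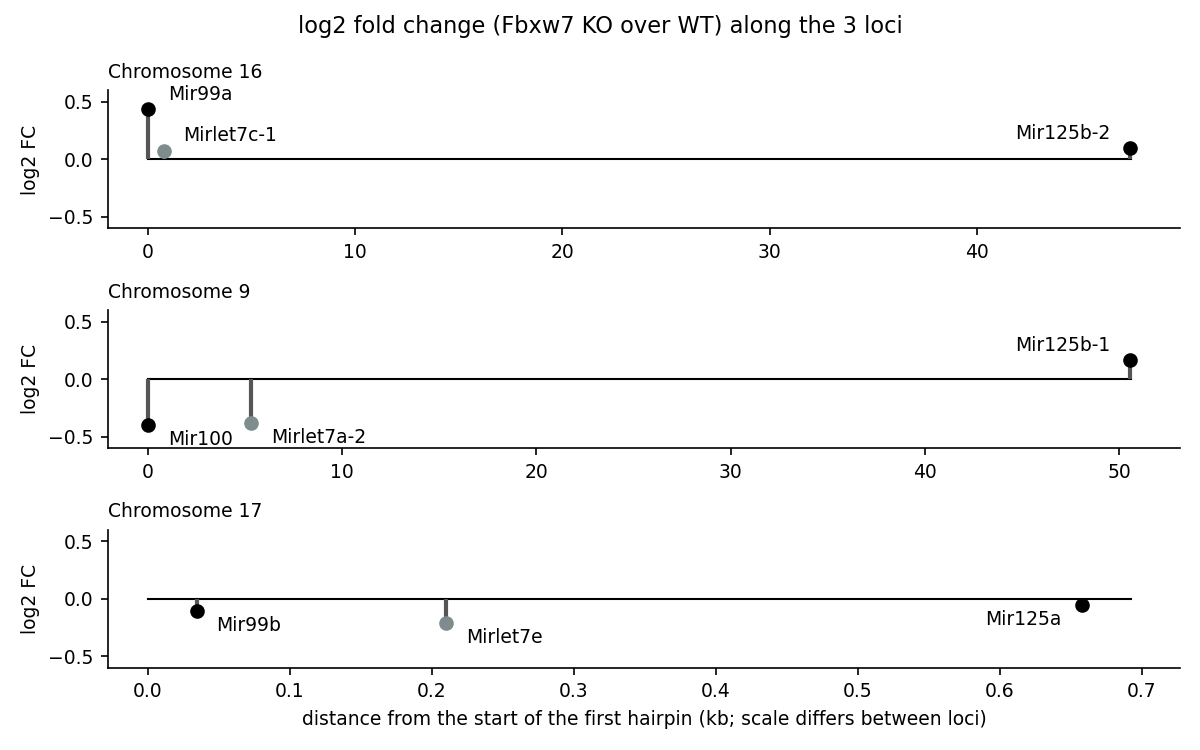
Log2 fold change, Fbxw7 KO over WT (y axis), of the miR-99/100, let-7 and miR-125 hairpins at their distance in kb from the start of each locus (x axis, own scale per locus), members in black and let-7 hairpins in grey. The first hairpin is at 0.44 on chromosome 16, -0.40 on chromosome 9 and -0.10 on chromosome 17, while the last stays between -0.05 and 0.17.

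Of 3 related miRNAs, Mir351 with the miR-125 seed and Mir10a and Mir10b with a seed of their own, 0 were higher and 1 was lower. The share called among all tested miRNAs was 25.4%. Mir10a, in the Hoxb cluster, had 29036, 29451 and 26199.9 CPM in Fbxw7 KO, against 51276, 59099.7 and 46240.1 in WT. All KO libraries were below all WT libraries, and it fell by 0.89 on the log2 scale (SE 0.131, edgeR adjusted p = 0.00179), a call made in 16 of 16 alternatives. Mir10b, in introns of Hoxd3 and Hoxd4, had 0.27 (edgeR adjusted p = 0.275), with 15629 to 18752 CPM in Fbxw7 KO and 11155 to 17281 in WT. Mir351, which carries the miR-125 seed on the X chromosome, had 389.98, 390.7 and 485 CPM in Fbxw7 KO, against 624, 631 and 324 in WT. WT replicate 3 was the lowest library and the other WT libraries the highest, and the log2 fold change of -0.32 did not pass (edgeR adjusted p = 0.368). Without WT replicate 3, Mir351 passed as lower (log2 fold change -0.59, edgeR adjusted p = 0.0201), its only call in 16 alternatives. Over these its log2 fold change ran from -0.59 to -0.16 and its adjusted p from 0.0201 to 0.754.

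The miRNAs most like each member were taken by Pearson r of log2 CPM over the 6 libraries, which share genotype and scaling. The 124 candidates had a mean of at least 100 CPM and left out the members, the let-7 neighbours and the related miRNAs. These likenesses are a description, with no test. Mir99a was closest to Mir708 (r = 0.95) and Mir676 (r = 0.93), which were both higher in Fbxw7 KO (log2 fold changes 1.98 and 0.72, edgeR adjusted p = 0.00114 and 0.0161). Mir100 was closest to Mir28a (r = 0.92; log2 fold change -0.40, adjusted p = 0.0850) and Mir328 (r = 0.92; -0.44, adjusted p = 0.0418), of which Mir328 was lower. Mir99b was closest to Mir196a-1 (r = 0.99) and Mir151 (r = 0.94), and neither passed the test. Among the candidates, Mir125a was closest to Mir28a (r = 0.87) and Mir873b (r = 0.86). Its neighbour Mirlet7e, which was no candidate, was closer (r = 0.93), but so close a likeness was not general in that locus. Mir99b there had r = 0.12 with Mir125a and 0.37 with Mirlet7e. Mirlet7a-2 on chromosome 9 reached r = 0.85 with Mir125a and 0.90 with Mirlet7e. Mir125b-1 was closest to Mir298 (r = 0.86) and the muscle miRNA Mir206 (r = 0.83), and Mir125b-2 to Mirlet7f-1 (r = 0.96) and Mir322 (r = 0.94), none of which passed the test.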

How the data were processed

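Whole-number counts per miRNA name were deposited by the authors, made with featureCounts 1.6.4 without strand, per the file headers. Build mm10 and TopHat2 2.1.1, SAMtools 1.5, Cufflinks 2.2.1 and deepTools are named per the submitters' processing notes, while for trimming and alignment the settings are not given in the sources used. FPKM values were also deposited by the authors, and within each library they equal count per length times 1 constant.

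The test was that of edgeR 4.0.16 under R 4.3.3 (TMM factors, filterByExpr with a minimum count of 10 and total of 15, robust glmQLFit, glmQLFTest) over the whole table, with genotype as the only term and Benjamini-Hochberg adjustment over 283 rows. Within-library ratios add 0.5 to each count. Alternatives used DESeq2 1.42.0 and limma 3.58.1. The members, lists, named miRNAs and alternatives were chosen with earlier results of these data known. Named besides the members are the 3 let-7 neighbours, Mir351, Mir10a, Mir10b, and the 2 most similar miRNAs per member outside these lists. Mir6367 and Mir6394 were added after their values were seen. Deviations from the genotype means of same-numbered KO and WT libraries correlated at r = -0.05, 0.14 and 0.17. Differently numbered libraries gave -0.19 to 0.15, and the 0.17 of the third libraries was the highest. The main test used no pairing, and the label numbers served as a block in an alternative.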

Additional observations from a re-analysis of the deposited data

How the results depend on the processing

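Of 176 alternative values, 164 kept their direction and side of the threshold, or for the number of called miRNAs stayed within 1.5 times of it. The tally includes the share of counts and the ratios, for which only the direction could change, since their exact tests cannot pass. Mir99a passed with library totals only (log2 fold change 0.50, edgeR adjusted p = 0.0215) and with the label numbers as a replicate block (0.45, adjusted p = 0.0388), and Mir100 passed with TMM factors from outside the Dlk1-Dio3 region (-0.53, adjusted p = 0.0371) and with the stricter filter of 50 counts in 3 libraries (-0.43, adjusted p = 0.0495). The cause was not tested. The block changed no other call of a member, ended that of Mirlet7a-2 (adjusted p = 0.0544), and the number of called miRNAs was 76 with it. Outside-Dlk1-Dio3 factors moved the median of all tested miRNAs to -0.07, against 0.05, gave Mir125b-2 a log2 fold change of -0.030, and split the calls into 30 higher and 34 lower, against 43 and 29; the stricter filter gave 34 and 33. Leaving out each library gave 34 to 78 called miRNAs, the lowest being 34 when Fbxw7 KO replicate 2 was out, then 35 (WT replicate 2) and 42 (WT replicate 1). It gave 0.34 to 0.58 for Mir99a, -0.52 to -0.33 for Mir100, -0.051 (without WT replicate 3) to 0.23 for Mir125b-2 and -0.22 to 0.43 for the log2 difference of Mir125b-1 to Mir125b-2, which was -0.22 without WT replicate 1. Without Fbxw7 KO replicate 3 Mir99a and Mir100 passed. With 3 libraries per genotype the exact tests cannot pass 0.05, so their p-values say nothing about stability.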
